A study of Homo sapiens with 6 samples.

Results

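The accessible chromatin around the 8 genes of the high mobility group (HMG) chromatin proteins HMGA1, HMGA2, HMGB1, HMGB2, HMGN1, HMGN2, HMGN3 and HMGN4 is described here in a human beta cell line. A region was taken as a promoter region of a member when any of its bases lay within 2 kb of the start of one of that gene's protein-coding transcripts. Of the remaining regions, those whose midpoint had its nearest protein-coding start site at a member, within 100 kb, were taken as its distal regions. This gave 33 of the 108542 regions in the deposited table, 12 promoter regions and 21 distal regions.

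The 6 ATAC-seq libraries came from EndoC-βH3 cells, a line grown from human fetal pancreas whose immortalising genes, hTERT and SV40 large T antigen, are excised when 4-hydroxytamoxifen (4-OHT) activates a CreER recombinase. The 3 senescent libraries were from cells given 4-OHT for 3 weeks, and the 3 non-senescent libraries from control cells, all with the genotype given as WT. Each library was made from 100000 cells. As the model is a single line, and as 4-OHT exposure and loss of the transgenes came with the senescent group, these cannot be told apart from senescence.

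ATAC-seq uses a transposase that cuts exposed DNA, and the more accessible a stretch of chromatin is, the more reads it yields. The values below are the mean signal of the deposited table, a normalised read count per region averaged over all 6 libraries of both groups. They have no error, and the 2 groups could not be compared, since no value of a single library was used here. Neighbours in any order of levels given below therefore cannot be said to differ. Ranks are percentiles, the share with a lower value among the other genes that had a region of that kind. They are descriptions without a test.

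HMG proteins are abundant chromatin proteins that bend, loosen or decorate DNA without being classical transcription factors. HMGA proteins bind the minor groove of AT-rich DNA through AT-hooks, are high in embryonic and transformed cells, and have been found in the heterochromatin foci of senescent fibroblasts. HMGB proteins bend DNA with HMG boxes, and HMGB1 also acts outside the cell as an alarm signal. HMGN proteins bind the nucleosome itself and compete with linker histones, and HMGN3 is known for a role in insulin secretion.

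The sequences in front of the start sites are shown first, since they lie within the open promoter regions whose signal is given below. They are from the set of RefSeq promoters used here (GRCh38.p14). That set had an entry for 6 of the 8 members, HMGA1, HMGB1, HMGN1, HMGN2, HMGN3 and HMGN4. HMGA2 and HMGB2 had none in it. The capitals mark CCAAT boxes, the letters bound by NF-Y, and GC boxes (GGGCGG), the letters bound by SP and KLF factors, on either strand. Each sequence is read 5′ to 3′ along its gene, and bases within an exon of the gene were left out, which left none for HMGN1.
HMGA1, chr6:34236623-34236872, plus strand: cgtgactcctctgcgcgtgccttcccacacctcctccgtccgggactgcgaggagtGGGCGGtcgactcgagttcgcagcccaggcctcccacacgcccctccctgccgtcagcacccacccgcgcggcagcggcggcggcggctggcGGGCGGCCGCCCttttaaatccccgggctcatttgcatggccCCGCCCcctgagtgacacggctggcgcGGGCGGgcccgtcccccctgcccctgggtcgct
HMGB1, chr13:30465939-30466186, minus strand: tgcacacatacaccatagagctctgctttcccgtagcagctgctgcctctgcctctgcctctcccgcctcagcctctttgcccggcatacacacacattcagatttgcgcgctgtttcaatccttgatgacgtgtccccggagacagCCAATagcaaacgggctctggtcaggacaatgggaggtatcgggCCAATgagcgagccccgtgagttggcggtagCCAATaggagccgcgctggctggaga
HMGN2, chr1:26472190-26472439, plus strand: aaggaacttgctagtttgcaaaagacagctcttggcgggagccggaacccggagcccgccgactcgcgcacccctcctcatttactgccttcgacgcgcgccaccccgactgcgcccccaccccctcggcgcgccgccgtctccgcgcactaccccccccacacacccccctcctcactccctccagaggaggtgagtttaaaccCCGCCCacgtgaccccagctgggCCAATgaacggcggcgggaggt
HMGN3, chr6:79234690-79234932, minus strand: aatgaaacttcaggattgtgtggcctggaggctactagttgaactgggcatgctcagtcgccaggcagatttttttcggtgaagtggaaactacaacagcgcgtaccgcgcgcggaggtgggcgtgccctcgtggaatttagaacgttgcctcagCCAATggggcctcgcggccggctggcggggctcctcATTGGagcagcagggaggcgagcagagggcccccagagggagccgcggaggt
HMGN4, chr6:26538116-26538365, plus strand: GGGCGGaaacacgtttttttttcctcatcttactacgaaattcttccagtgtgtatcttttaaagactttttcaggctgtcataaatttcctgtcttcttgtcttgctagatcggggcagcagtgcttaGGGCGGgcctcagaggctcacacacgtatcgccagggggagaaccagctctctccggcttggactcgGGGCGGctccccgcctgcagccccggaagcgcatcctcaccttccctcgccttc

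In the 250 bases before the start site, CCAAT was found in 4 of the 6 members, against 32.9% of the 21574 promoters in the table. HMGB1 held 3 copies, HMGN1 and HMGN3 held 2 each and HMGN2 held 1. In HMGB1 the copies began 103, 59 and 28 bases before the start, and all 3 ran in the direction of the gene. In HMGN3 the copy 95 bases before the start ran along the gene and the one at 59 bases ran against it. The GC box was found in 4 of 6 members, against 54.2% of promoters, with 5 copies in HMGA1, 4 in HMGN1, 3 in HMGN4 and 1 in HMGN2. In this window HMGA1 and HMGN4 therefore held GC boxes and no CCAAT, and HMGB1 and HMGN3 held CCAAT and no GC box. The split depends on the window, since HMGN4 held a CCAAT within 500 bases and HMGA1 held one when 50 bases after the start were added. HMGN1 and HMGN4 each held 1 copy of the ETS letters CCGGAAG, which occurred in 10.7% of promoters. The canonical E-box CACGTG, bound by MYC, MAX and USF, occurred in HMGN2 alone of the 6 and in 7.39% of promoters. Its first letter is the last of the GC box.

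HMGB1, HMGB2 and the 4 HMGN genes had a mean promoter signal above the median of genes with a promoter region. The HMGA pair lay far below it. Of 19676 protein-coding genes with a start site, 15493 (78.7%) had a promoter region. The strongest promoter region of a gene had a median signal of 840.4 (quartiles of 391.4 and 1414). The strongest promoter signals were 2452 for HMGB1, 2097 for HMGN4, 1877 for HMGB2, 1591 for HMGN3, 1419 for HMGN2, 1198 for HMGN1, 256.1 for HMGA2 and 247.9 for HMGA1. The lowest of the first 6, HMGN1, was at 4.68 times the signal of HMGA2, so a wide gap separated them from the HMGA pair. The median percentile of the 8 members was 77.8. It was 90.2 for the HMGB pair, 77.8 for the HMGN genes and 17.3 for the HMGA pair.

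**Figure D1:**
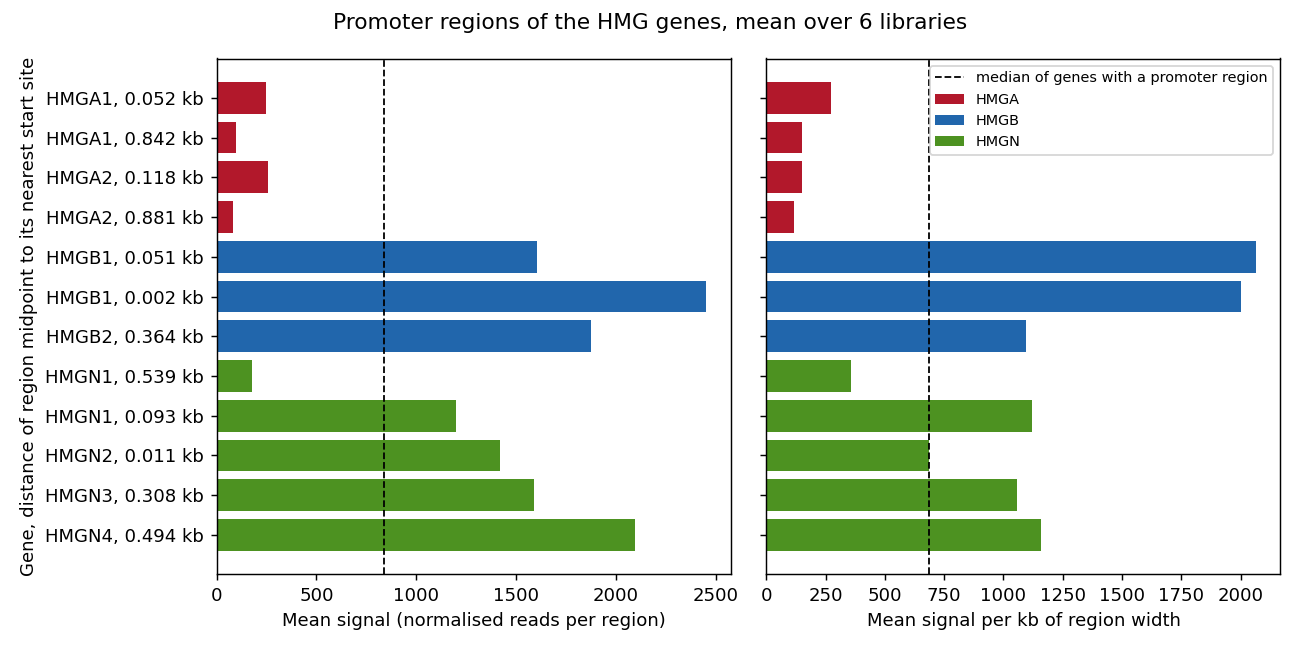
Mean signal of the 12 promoter regions of the HMG genes per region (left) and per kb of region width (right), with 1 bar per region, labelled by the distance of its midpoint from the nearest start site, coloured by family. The dashed line is the median over genes of the strongest promoter region of each (840.4 and 685.6). All 4 HMGA bars lie below it on both scales, and below the median of all promoter regions (506.2 and 506.6, not drawn).

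A wider region collects more reads, so levels are compared between genes per kb of width. On this scale HMGB1 stood at 2002, followed by HMGN4 at 1158, HMGN1 at 1122, HMGB2 at 1094, HMGN3 at 1059, HMGN2 at 686.6, HMGA1 at 272.1 and HMGA2 at 148.5. The median of genes was 685.6 per kb. The values from HMGN4 to HMGN3 lay close together, while HMGB1 was well above and the HMGA pair below. HMGN2 had the widest region of the 8, 2067 bp against a median of 1156 bp over genes. Per kb HMGN2 fell from the 75.2th percentile to the 50.1th, the middle of genes with a promoter region. HMGB1 stayed near the top, at the 93.8th percentile per region and the 94.2th per kb. HMGA2 went from the 17.5th to the 9.26th, as its weak signal was spread over 1725 bp.

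**Figure D2:**
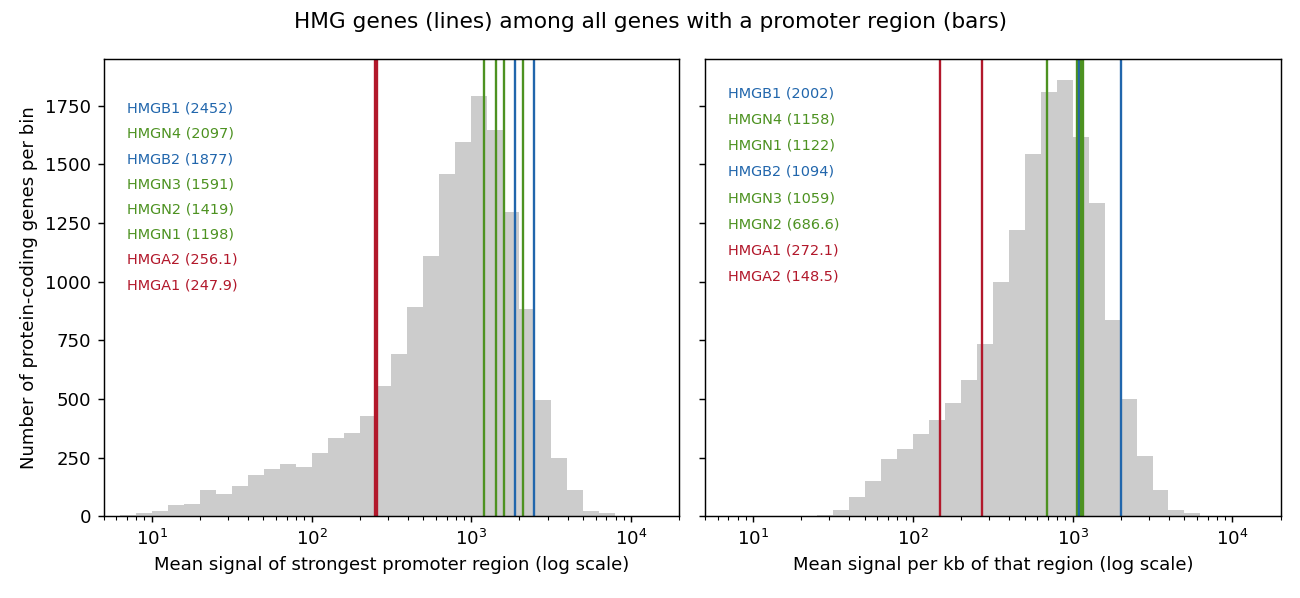
Number of protein-coding genes (grey bars) by the mean signal of their strongest promoter region (left) and by its signal per kb (right), on log axes. The coloured lines mark the 8 HMG genes with their values; HMGA1 and HMGA2 lie in the left tail and HMGB1 in the right part, at 2452 and at 2002 per kb.

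The HMGA genes each had a pair of weak promoter regions. HMGA1, an architectural factor common in dividing cells, had its main region at chr6:34236366-34237277, with a mean signal of 247.9. The midpoint lay 52 bp upstream of a start site, and the start of an unnamed long noncoding RNA lay in the same region. Its second region, chr6:34237625-34238274, had a signal of 97.71 and lay in an intron. HMGA2, a fetal gene that is silent in most adult tissues, had its main region over the first exon, chr12:65823739-65825464, with a signal of 256.1. The second, chr12:65825659-65826349, had a signal of 80.37. Both HMGA2 regions also overlapped RPSAP52, a transcribed pseudogene. The HMGA pair was alike per region (ratio of HMGA2 to HMGA1 of 1.03) and unlike per kb (0.546).

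HMGB1 was open at its main start site and at a far upstream start, which lie 151.7 kb apart. The region at the main start, chr13:30465601-30466377, had a mean signal of 1603 and also held the start of an unnamed long noncoding RNA. The region at the far upstream start, chr13:30616983-30618208, had 2452. Per kb they were nearly the same, at 2065 and 2002. The upstream region also held the start of USPL1, a SUMO protease gene, so its reads cannot be assigned to one of the 2 genes. The main region alone would have put HMGB1 at the 80.6th percentile of genes. HMGB2, which is known to be expressed in proliferating cells, had a single region, chr4:173333897-173335613, with a signal of 1877. It held the HMGB2 starts and the start of an unnamed long noncoding RNA.

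Each HMGN gene had a promoter region at its start with a signal above the median of genes, though per kb HMGN2 was level with it. HMGN1, a nucleosome binder on chromosome 21, had a region with a signal of 1198 at chr21:39349020-39350088 and a second, of 176.4, at chr21:39348267-39348762. HMGN2 had 1 region of 1419 (chr1:26471418-26473485) centred 11 bp from its start. HMGN3 had 1 region of 1591 (chr6:79233555-79235058), which also held the start of its antisense RNA HMGN3-AS1. HMGN4, a gene derived from HMGN2, had 1 region of 2097 (chr6:26536966-26538778), at 1.48 times the signal of HMGN2 and 1.69 times per kb.

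Promoter regions holding start sites of 2 or more genes were 5 of 12, in 4 of the members (HMGA1, HMGB1, HMGB2 and HMGN3), against 22.5% of all promoter regions. Every one of the 12 had a CpG content, as observed over expected, above 0.6, against 68.0% of all promoter regions, and the medians were 0.798 and 0.716. The GC content was at a median of 65.3% in the members and 62.2% in all. In the central 300 bp of the regions, CCAAT was found in 7 of 12, against 24.2% of all promoter regions, with 1 region in every member but HMGA2. The letters TTTGAA of the CHR element, through which MuvB complexes act on cell-cycle genes, were found in the regions of HMGB2, HMGN3 and HMGN4, 3 of 12 against 8.63%. In the central 300 bp of the regions, the TATA box (TATAAA) was found in HMGN1 and HMGN2, against 4.78%. It was in 0 of the 6 members with an entry in the 250 bases before the start, against 9.0% of promoters. With 50 bases after the start added it was in HMGN2 alone, and within 500 bases before the start in HMGN1 and HMGN3. The GC box was in 6 of 12, near its share of 55.5%. The ETS letters were in none of the 12, against 9.6% of all promoter regions. The NRF1 letters GCATGCGC (2.21%), the CREB letters TGACGTCA (1.41%), the YY1 letters AAGATGGCG (1.94%) and the AP-1 letters TGANTCA (4.51%) were also in none. Nor were the E2F letters TTTCCCGC, TTTCGCGC, TTTGGCGC and TTTGCCGC (3.62% together). With shares this low, few or no matches among 12 regions say little.

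The distal regions differed between members more than the promoters did in number. HMGN3 had 6, HMGA2 had 5, HMGN4 had 4, HMGA1 and HMGN2 had 2 each, HMGB1 and HMGN1 had 1 each and HMGB2 had none, where the median over genes was 1 and 32.9% had none. Their midpoints lay 5.27 to 95.2 kb from the start (median of 35.4 kb), 9 upstream and 12 downstream, and 13 were intergenic, 5 intronic and 3 exonic. Their signals ran from 14.21 to 1593, with a median of 270.6, against 76.82 over all distal regions, and 13 of the 21 were above that median. Here and below, all distal regions are the 88447 regions that are not promoter regions. Of these, 55157 had their midpoint within 100 kb of a protein-coding start site, the limit set for the members. The median percentile of the distal sum, over the 7 members with a distal region, was 68.7, but it was 55.8 per kb and, over the 6 members with a distal region within 20 kb of the start, 38.3 at that limit. The regions were also wider, at a median of 680 bp against 490 bp.

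**Figure D3:**
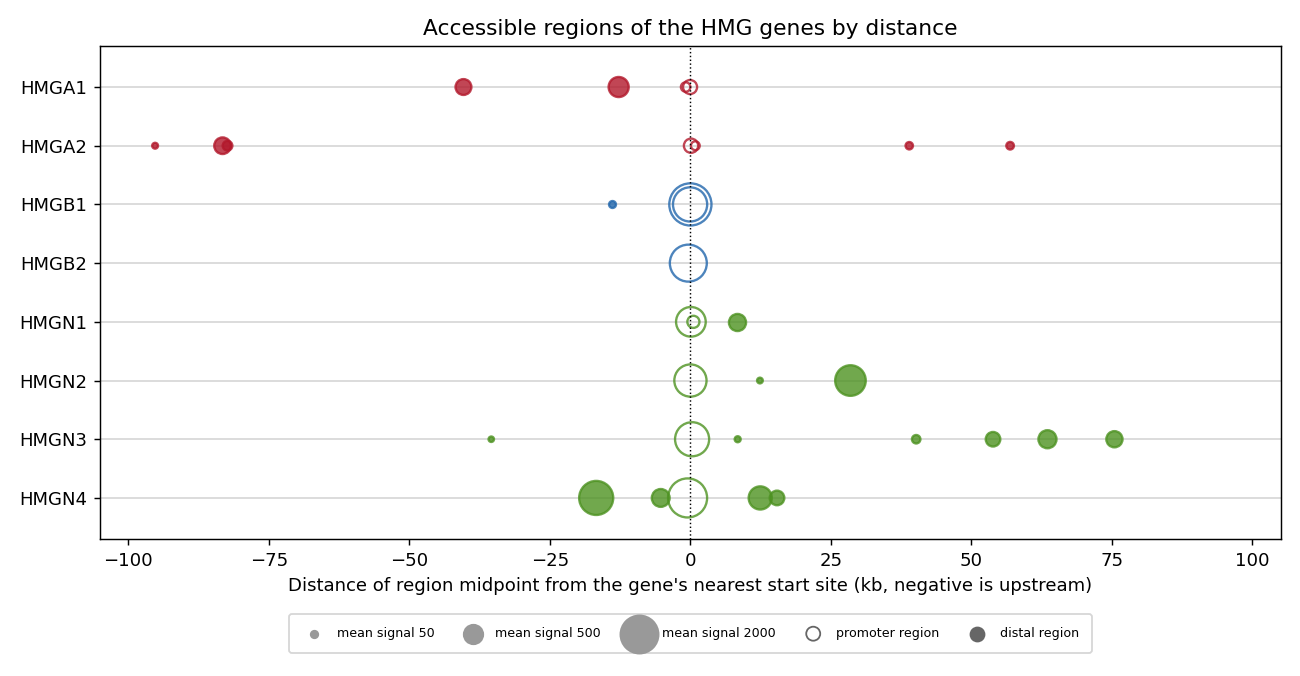
Regions of the 8 HMG genes by the distance of the midpoint from the nearest start site of the gene (kb, upstream to the left), with open circles for promoter regions and filled circles for distal regions, and the circle area growing with mean signal. HMGN4 is flanked by 4 distal regions within 16.8 kb, HMGN3 has most of its own 40.2 to 75.5 kb downstream, and HMGB2 has none.

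HMGN4 had the strongest surroundings. Its distal regions summed to a mean signal of 3003, at the 93.8th percentile of the 13197 genes with a distal region. The first, of 1593, lay 16.8 kb upstream and held the start of the long noncoding RNA HCG11. The next lay 12.4 kb downstream (721.6) and 5.27 kb upstream (417.7). HMGN2 followed with a sum of 1297, nearly all from 1 intergenic region of 1278, 28.5 kb downstream at chr1:26500109-26501744. The other HMGN2 region had a signal of 18.7.

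The distal regions of HMGN3 summed to 1146 and its 3 strongest lay beyond the end of the gene, at 63.5 kb (428.5), 75.5 kb (339.1) and 53.9 kb (268.5) downstream. HMGA1 had 2 intergenic regions upstream, of 535.9 at 12.8 kb and of 324.0 at 40.4 kb. Per kb they were at 541.3 and 320.2, against 272.1 for its main promoter region, and without an error the lower of them cannot be said to differ from the promoter. In HMGA2 the strongest distal region, of 358.9, lay 83.2 kb upstream, at 493.7 per kb against 148.5 for its promoter. The next were of 104.6 at 82.4 kb upstream and of 53.93 at 56.9 kb downstream, the latter at the start of HMGA2-AS1. HMGN1 had a region of 382.6, 8.29 kb downstream, and HMGB1 had a single weak region of 40.07 in an intron of its long transcript. Each HMGA gene thus had a weak promoter and at least 1 distal region with a higher value, and the HMGB genes had high promoter signal with little distal signal.

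CpG content in the distal regions, as observed over expected, was above 0.6 in 8 of the 21, against 5.96% of all distal regions, and the medians were 0.437 and 0.218. The 8 were all 4 regions of HMGN4 (0.64 to 0.835), 3 of the 5 of HMGA2 (0.643, 0.822 and 0.952) and the strong region of HMGN2 (0.693). Regions of HMGA2 and HMGN2 thus lay on both sides of 0.6. The 6 regions of HMGN3 were at 0 to 0.285, and 5 of them were below the median of all distal regions. Of the 2 distal regions holding a start site of a noncoding transcript, at HCG11 and HMGA2-AS1, only the first was among the 8.

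**Figure D4:**
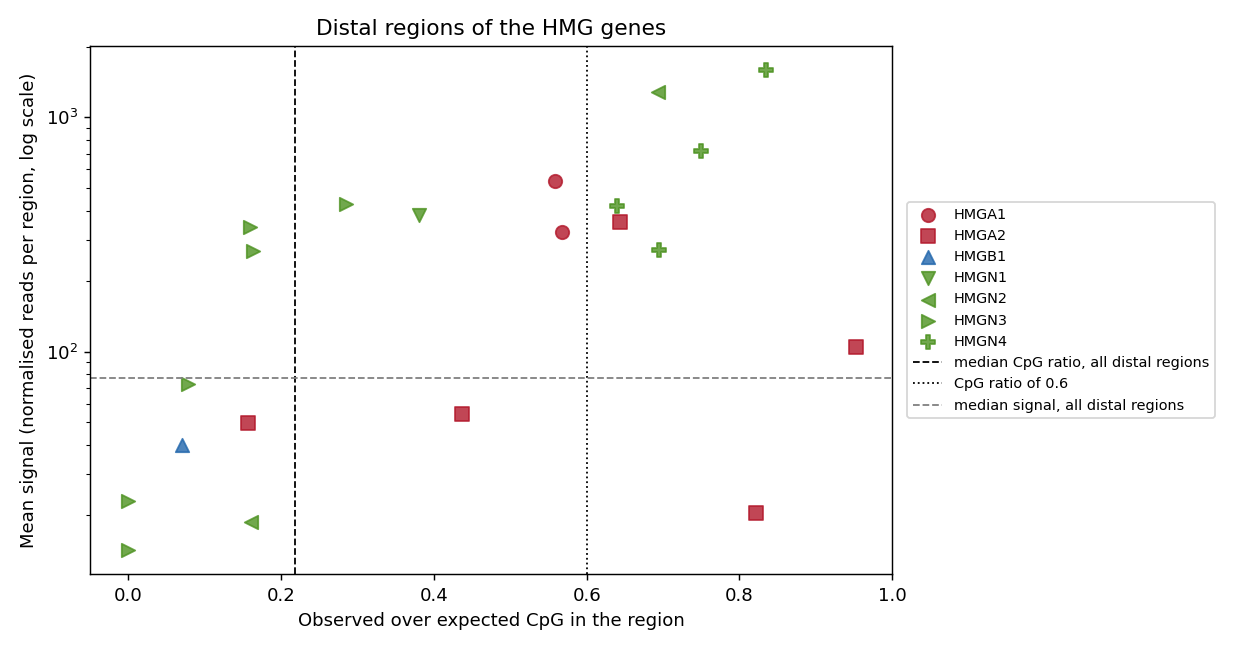
Mean signal (log axis) against observed over expected CpG for the 21 distal regions of the HMG genes, with 1 symbol per region, shaped by gene and coloured by family. The lines mark the medians of all distal regions (0.218 and 76.82) and a CpG ratio of 0.6; the HMGN4 regions all lie to the right of 0.6 and the HMGN3 regions to the left.

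The core letters of the CTCF motif, AGGGGGCGC, were found in the central 300 bp of 2 regions, both of HMGA1. These were its intronic promoter region, where 2.47% of all promoter regions held them, and its distal region at 40.4 kb, where 0.503% of all distal regions did. Both regions were GC-rich, at 72.6% (94.3th percentile of promoter regions) and 64.1% (96.1th of distal regions). The shares were not matched for GC content. CTCF organises the folding of chromatin and is one of the factors the study mapped, which is why these sequences are shown. Each is read from the hg38 plus strand, with the core in capitals, and the first core lies on the minus strand.
HMGA1 intronic promoter region, chr6:34237833-34237893: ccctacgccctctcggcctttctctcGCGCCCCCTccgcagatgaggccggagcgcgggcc
HMGA1 distal region, chr6:34196389-34196449: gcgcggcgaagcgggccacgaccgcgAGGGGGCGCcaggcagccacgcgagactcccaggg

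In the central 300 bp, the E2F letters were in none of the promoter regions and in 3 of the 21 distal regions, against 0.744% of all distal regions. These were the HMGA2 regions at 95.2 kb upstream and 38.9 kb downstream and the HMGN3 region at 40.2 kb downstream, and all had a signal below the median of distal regions (20.45, 49.4 and 73.0). They are named here after their values were seen. CHR letters were in 7 of 21, against 24.5%. The GC box was in 4 of 21, against 8.65%, 1 each in HMGA1, HMGA2, HMGN2 and HMGN4. The AP-1 letters were in 3 of 21, against 11.1%, in the HMGA1 region at 12.8 kb and in the HMGN3 regions at 63.5 and 75.5 kb. Of the letters of factors known in beta cells, the NEUROD1 E-box (CAGATGG) was in 3 of 21 (13.6% of all), the homeobox letters TAATTA in 2 of 21 (10.1%) and the forkhead letters TGTTTAC in 2 of 21 (9.43%), all near the share in distal regions in general.

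Related genes were set beside the members. HMGB3 and HMGN5, close relatives, had strongest promoter signals of 636.4 and 685.7 (1043 and 442.9 per kb), and HMGB4, a testis gene, had no promoter region. All 15 other HMG-box chromatin proteins had one, at a median percentile of 51.2. Per region, CIC (5968) and HMG20B (1885) were the highest and TOX2 (66.58) and the FACT subunit SSRP1 (439.5) the lowest. Per kb, TOX3 (305.7) was below SSRP1 (354.4). Of 10 linker histone genes, with whose products HMGN proteins compete, 7 had a promoter region. Per region, H1-4 (2103) and H1-2 (834.2) were the highest and H1-1 (108.6) and H1-5 (132.5) the lowest. Per kb, H1-3 (231.1) was below H1-1 (395.1). Of 5 receptors of extracellular HMGB1, HAVCR2 (1217), CXCR4 (668.0) and TLR2 (39.45) had a region and AGER and TLR4 had none.

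The label of the line was checked on marker genes. All 16 beta cell genes had a promoter region. Per region, 9 of them were above the middle of genes with a promoter region (median percentile of 75.8). The others, among them IAPP at 13.6, G6PC2 at 22.4 and MAFA at 38.7, were below it. Per kb the median percentile was 81.2, and NKX2-2 (25.7 per region) stood at 91.2 and MAFA at 74.8. IAPP at 31.0 and G6PC2 at 19.4 stayed below the middle per kb. By contrast, fibroblast genes (3 of 3, at a percentile of 9.99 per region) and endothelial genes (2 of 3, at 8.55) were low. Immune genes had one in 2 of 4, at a percentile of 20.9. Of the acinar genes, CPA1 had a signal of 2101 and CELA3A of 43.24, at a median percentile of 46.8, and PRSS1 had no region. Of the hepatocyte genes, APOA2 had a signal of 1990, at the 88.4th percentile, and ALB had no region.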

How the data were processed

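The 3 senescent and 3 non-senescent ATAC-seq libraries were grouped by their titles. Per the methods of the study and the processing notes of the submitters, reads were trimmed with Trim Galore, aligned to hg38 with Bowtie2, cleared of mitochondrial reads and duplicates and shifted for the transposase, peaks were found with MACS2, and reads under the union of peaks were counted and scaled with DESeq2 size factors. Tool versions are not given in the sources used here. The mean signal of the table deposited by the authors is the average of these normalised counts over the 6 libraries. It is not divided by width, and it keeps no library's depth, so precision could not be computed. The 5 other value columns hold the authors' own comparison of the groups (log2 fold change, its error, statistic, p-value and adjusted p-value) and were not used, so the planned comparison of the groups was not run.

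Start sites were taken from GENCODE 44. A gene's promoter value was that of its promoter region of highest signal, and its distal value the sum over its distal regions. Signal per kb is the signal divided by region width. Observed over expected CpG was computed over each region. Motifs were searched on both strands in RefSeq promoters (250 bases before the start) and in the central 300 bp of regions. The assignment of regions was tested on simulated data. All 8 members were named with all promoter regions and the 3 strongest distal regions, and of each list of related genes the 2 highest and 2 lowest. Distal regions outside this rule are named after their values were seen. The members and lists were chosen with earlier results of these data known. Region coordinates are printed as the table gives them, and whether starts count from 0 or 1 is not stated. A planned comparison of the proteins was not run. Python 3.11.15, pandas 2.3.3, numpy 2.4.6, pysam 0.24.0 and matplotlib 3.10.9 were used.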

Additional observations from a re-analysis of the deposited data

How the results depend on the processing

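No paired analysis was possible because values of single libraries were not used here, and for the same reason no library could be left out and no comparison of the groups, nor any of its alternatives, was run. Of 115 values under alternatives, 90 stayed within the limit set for each kind (a ratio of 1.5 for counts, 10 points for percentiles) and 25 moved. The 12 promoter regions were 10 to 12 under all alternatives. The 21 distal regions were 9 with a limit of 20 kb and 5 with the start sites of all genes, noncoding ones included. The median promoter percentile of 77.8 ran from 73.0 to 82.8. The median distal percentile of 68.7 was 87.1 with the mean over distal regions, 54.0 with a limit of 50 kb, 38.3 with a limit of 20 kb and 55.8 with signal per kb. Of the single members, 4 of 56 promoter percentiles moved, to 49.0 for HMGN1 with the mean over its promoter regions and, per kb, to 73.9 for HMGB2, 50.1 for HMGN2 and 76.4 for HMGN4. Of the distal percentiles, 15 of 34 moved. HMGB1 was at 84.8 without the regions shared with another gene's promoter, an alternative chosen after seeing the data. In the other windows of sequence CCAAT was in 5 members, with HMGN4 added within 500 bases and HMGA1 added with 50 bases after the start, and the GC box was in 4. The cause was not tested in any of these. A distal region is given to the gene of the nearest start, which does not show which gene it acts on.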

Other observations

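HMG genes have left many pseudogenes in the human genome, most of them processed copies inserted from their RNA. GENCODE 44 names 126 pseudogenes of the members, with 47 of HMGB1, 38 of HMGN2, 32 of HMGN1, 7 of HMGA1 and 1 each of HMGB2 and HMGN3. None of the 120 processed copies overlapped a region of the table. A rough upper limit from counting alone, by a rule of thumb, would be a share of 2.5% (3 of 120). That limit takes the copies as independent, which copies of the same parent may not be. It is not a test against all processed pseudogenes. Of all 10146 processed pseudogenes, 431 (4.25%) overlapped a region. The copies of the members were shorter, at a median of 351.5 bp against 571 bp, and whether length or the handling of reads that map to several places bears on this was not tested. The only pseudogene of a member that overlapped a region was HMGN2P46, which is not annotated as a processed copy, at a mean signal of 963.2. Its annotated span is long, chr15:45511136-45586290, and the region is a promoter region of a protein-coding gene. The overlap therefore does not show that the HMGN2-like sequence itself was open.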
